A study of Mus musculus with 12 samples.

Results

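Major urinary protein (Mup) genes were followed across liver tumors and livers of mice lacking E2f7 and E2f8 (double knockout, DKO) and wild-type (WT) livers. The family was taken as the 7 symbols Mup1, Mup3, Mup4, Mup5, Mup20, Mup21 and LOC620807, of 19012 gene symbols in the data. They were selected on their RPKM (reads scaled to kilobases of exon and to library depth) in DKO tumors against WT livers, where a lower level was already known, so that comparison is given below as a description without a test. Of the 7 genes, 5 were found by their symbol and 2, Mup20 and Mup21, by the accession beside an older symbol. LOC620807 now carries the symbol Mup6. The longest transcript of each symbol was used, and all 7 had at least 1 read in all 12 libraries.

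The groups were 4 DKO liver tumors, 4 DKO livers and 4 WT livers, each library 1 sample of polyadenylated RNA read by RNA sequencing on a SOLiD kit. E2f7 and E2f8 encode the atypical E2F proteins, which repress cell cycle genes. Tumor and liver libraries of the same number share an animal code in the names of the deposited data, so the DKO livers came from the tumor-bearing animals, while WT codes belong to other animals. Age, strain, sex, the deleted exons and the promoter of any Cre were not stated in the labels. The names also carry a tag whose meaning is not stated, L02 for all DKO livers and WT livers 1 and 2, and L03 for all DKO tumors and WT livers 3 and 4.

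MUPs are small secreted carrier proteins of the lipocalin family. In mice the liver releases them into blood, the kidney filters them into urine, and there they bind volatile pheromones and release them slowly. Male livers make far more of them than female livers, because pulsed growth hormone acts through the kinase JAK2 and the transcription factor STAT5B on these and other male-biased genes. Mup genes are therefore used as markers of a differentiated, hormone-responsive hepatocyte.

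The copies share much of their sequence, which decides how well short reads can be assigned to 1 copy. The 90 coding bases below are the stretch of the aligned coding sequences in which the 7 members differed most, at 34 of 90 positions, taken from the GENCODE M21 transcripts of GRCm38. All 7 lie on chromosome 4, and capitals mark bases that differ from the most common base of the 7. Where bases tied as the most common, the first in the alphabet was left unmarked.
Mup1: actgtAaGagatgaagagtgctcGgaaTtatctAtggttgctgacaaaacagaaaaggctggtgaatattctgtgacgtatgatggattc
Mup3: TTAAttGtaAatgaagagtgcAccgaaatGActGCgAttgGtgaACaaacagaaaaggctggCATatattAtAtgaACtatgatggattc
Mup4: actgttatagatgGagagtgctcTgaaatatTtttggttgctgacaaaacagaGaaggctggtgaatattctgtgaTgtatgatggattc
Mup5: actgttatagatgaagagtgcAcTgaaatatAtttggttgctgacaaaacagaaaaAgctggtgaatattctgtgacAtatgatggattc
Mup20: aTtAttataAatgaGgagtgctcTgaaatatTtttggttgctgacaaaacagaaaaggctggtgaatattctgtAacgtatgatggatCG
Mup21: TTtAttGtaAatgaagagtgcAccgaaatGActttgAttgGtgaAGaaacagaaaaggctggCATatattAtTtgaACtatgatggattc
LOC620807: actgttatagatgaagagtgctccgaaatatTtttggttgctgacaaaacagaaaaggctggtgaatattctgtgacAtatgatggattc
Mup3 and Mup21 stood apart from the other members in this stretch, with 22 and 19 marked bases, while LOC620807 had 2. Over the whole coding sequence the pairwise identity was 83.8% at the lowest, and Mup3 and Mup21 were the closest pair at 95.6%. Among Mup1, Mup4, Mup5 and LOC620807 it was 89.4 to 92.7%.

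The share of each transcript that a short read cannot place was counted as windows of 50 bases that also occur in a transcript of another gene. The length of the reads is not stated in the labels, so 50 is a choice. For Mup1 94.8% of 878 windows occurred elsewhere, in transcripts of 22 other genes, so its value cannot be told apart from reads of other copies. For Mup20 the share was 50.5% of windows. Most windows of the remaining members had no exact match, with 19.3% shared for Mup21, 17.1% for Mup5, 16.6% for Mup3, 12.4% for Mup4 and 4.7% for LOC620807. Only exact matches to annotated transcripts were counted. Near matches, which a read with errors could also fit, were left out, so these shares are lower limits.

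Promoters of the members are shown next, because all of them except Mup20 ran closely together across libraries. Of the 7, 4 matched a promoter in the RefSeq table (GRCm38.p6), and Mup1, Mup5 and Mup20 did not. The 120 bases before each annotated start site are printed 5′ to 3′ on the strand of the gene, with TATAAA on either strand in capitals, at chr4:62087318-62087437 (minus strand) for Mup3, chr4:59960668-59960787 (minus) for Mup4, chr4:62150842-62150961 (minus) for Mup21 and chr4:60003361-60003480 (plus) for LOC620807.
Mup3: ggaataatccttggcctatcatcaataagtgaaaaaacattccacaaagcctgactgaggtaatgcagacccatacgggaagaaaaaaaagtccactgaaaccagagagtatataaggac
Mup4: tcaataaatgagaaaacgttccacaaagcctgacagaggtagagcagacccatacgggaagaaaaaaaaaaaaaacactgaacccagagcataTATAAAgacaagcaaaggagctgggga
Mup21: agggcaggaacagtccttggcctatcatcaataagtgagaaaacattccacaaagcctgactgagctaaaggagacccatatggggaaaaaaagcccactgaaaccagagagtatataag
LOC620807: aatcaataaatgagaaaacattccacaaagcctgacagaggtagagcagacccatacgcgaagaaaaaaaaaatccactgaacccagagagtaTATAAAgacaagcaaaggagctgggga
TATAAA began at position -27 from the start site in Mup4 and LOC620807 and was found in 13.6% of the 32851 promoters of the table. The letters TTCNNNGAA, which STAT5 proteins are known to bind and which read the same way on both strands, were in none of the 4 windows of 250 bases before and 50 after the start, and in 8.3% of all promoters. Over these windows the 4 promoters were 85.5 to 93.9% identical, Mup3 with Mup21 being the closest pair and Mup4 with LOC620807 the next at 93.0%.

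Libraries held 7.985 to 15.956 M reads (M, mega). Hepatocyte markers were abundant in every group, the summed level of 24 secreted and metabolic hepatocyte genes being 133270 to 213380 RPKM in DKO tumors, 121270 to 189500 in DKO livers and 119490 to 145870 in WT livers. RNA of the Y-linked genes Ddx3y, Uty, Jarid1d and Eif2s3y was detected in all 12 libraries, and Zfy1 and Zfy2 were listed at 0 in all of them. E2f8 RNA averaged 5.70 ± 4.6 RPKM in DKO tumors, 9.75 ± 7.70 in DKO livers and 2.70 ± 1.13 in WT livers (SD, n = 4 each). E2f7 averaged 0.179 ± 0.101 RPKM in DKO tumors, 0.281 ± 0.0838 in DKO livers and 0.138 ± 0.0433 in WT livers. These levels do not check the genotype, because which exons were removed is not stated.

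Mup3, at mm9 chr4:61744510-61748345, was the dominant member, highest in all 12 libraries and 71.4 to 93.7% of the summed level of the 7. It had 823, 756, 2506 and 184 RPKM in DKO tumors 1 to 4, against 790, 6878, 2428 and 2234 RPKM in DKO livers and 4846, 3655, 3461 and 5020 RPKM in WT livers. All 4 tumors were below all 4 WT livers, and the DKO livers ran from 790 to 6878 RPKM, with liver 2 above every WT liver. How reads that fit several copies were placed or dropped is not stated. The part of this placement in the rank and share of Mup3 was not tested.

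The summed level, which depends less than single values on how reads were split among the 7 copies, followed Mup3. The sum does not include reads that were dropped or placed at other copies. It was 895, 955, 3101 and 237 RPKM in DKO tumors, 913, 8369, 3058 and 2385 RPKM in DKO livers and 6789, 4529, 4211 and 6534 RPKM in WT livers. This is a share of all reads of 0.0214 to 0.281% in DKO tumors, 0.0830 to 0.767% in DKO livers and 0.380 to 0.622% in WT livers. The SD was nearly as large as the mean in DKO tumors (1297 ± 1246 RPKM) and DKO livers (3681 ± 3251), whereas the WT livers were more alike (5516 ± 1333, n = 4 each). Fewer cells that make MUPs and less Mup RNA per cell cannot be told apart in bulk samples.

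**Figure D1:**
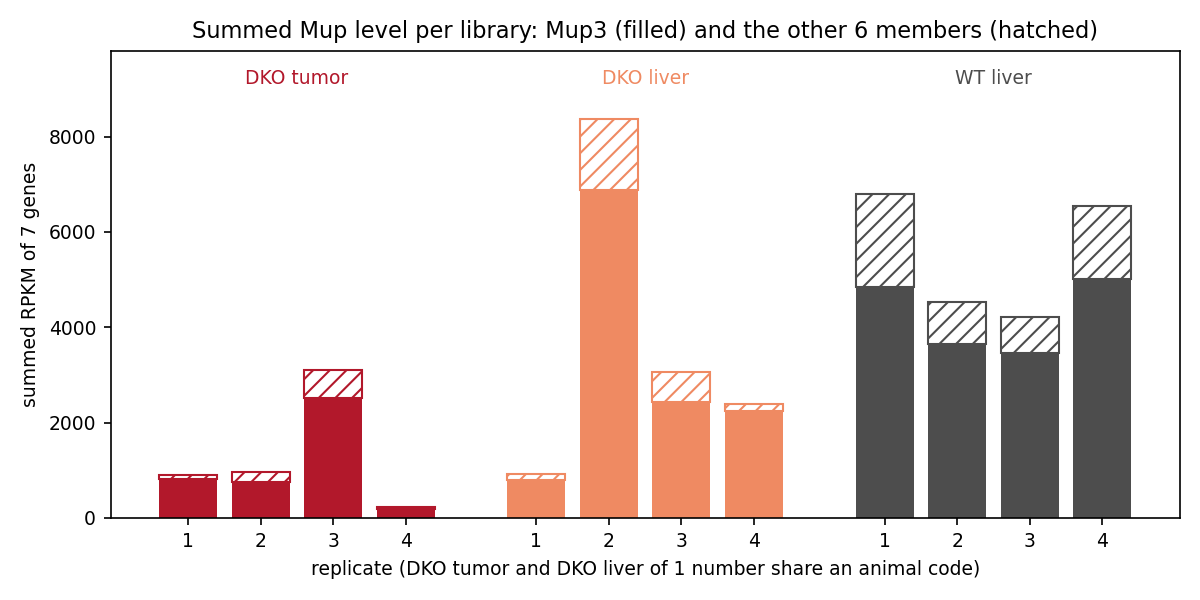
Summed RPKM of the 7 genes in each library, stacked as Mup3 (filled) and the other 6 members (hatched), on a linear axis from 0. DKO tumors 1, 2 and 4 reach at most 955 RPKM, DKO liver 2 reaches 8369 RPKM, and the WT livers lie between 4211 and 6789 RPKM.

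Mup21 and Mup5 came next in WT livers. Mup21, at mm9 chr4:61808596-61811896, had 16.2, 47.3, 104 and 12.8 RPKM in DKO tumors, 45, 808, 95.7 and 53.9 RPKM in DKO livers and 956, 381, 129 and 695 RPKM in WT livers. Mup5, known in mice also from salivary glands and located at mm9 chr4:61492352-61496213, had 15.4, 23.1, 81.0 and 17.3 RPKM in DKO tumors, 47.6, 267, 128 and 43.6 RPKM in DKO livers and 683, 327, 190 and 541 RPKM in WT livers. Both genes were lower in every tumor than in every WT liver, and in both WT liver 3 was the lowest of its group.

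Mup4, known in mice also from lacrimal and nasal tissue, and LOC620807 were measured at a lower level. Mup4, at mm9 chr4:59969677-59973536, had 4.66, 5.85, 18.8 and 2.97 RPKM in DKO tumors, 7.66, 50.6, 24.9 and 13.3 RPKM in DKO livers and 99.5, 51.8, 48.0 and 108 RPKM in WT livers. LOC620807, at mm9 chr4:60016420-60019085, had 2.55, 3.94, 14.8 and 2.96 RPKM in DKO tumors, 6.74, 50.2, 15.0 and 5.99 RPKM in DKO livers and 107, 45.5, 55.3 and 80.8 RPKM in WT livers. In each, 3 of 4 DKO livers were below every WT liver and DKO liver 2 reached the lower WT livers.

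Mup1, at mm9 chr4:60732254-60736197 and known in mice for effects on glucose and lipid metabolism, was the lowest of the 7 in all 12 libraries. It had 0.880, 0.765, 3.85 and 0.791 RPKM in DKO tumors, 2.41, 19.4, 6.40 and 1.28 RPKM in DKO livers and 28.9, 15.3, 19.2 and 25.3 RPKM in WT livers. Its counts were small, 9 to 51 reads in tumors and 11 to 180 in DKO livers, against 181 to 333 in WT livers. Read sharing with other copies was largest for this gene, and its part in the low level was not tested. With the shorter row of Mup1, at its other locus, the log2 difference of DKO tumors against WT livers was -1.5 in place of -3.28. That row had 0, 0, 0.0756 and 0 RPKM in DKO tumors and 1.08, 1.27, 7.55 and 0.684 RPKM in WT livers. At such levels the offset of 1 limits the difference, so the smaller value does not show a weaker fall.

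Mup20, at mm9 chr4:61711268-61715150, encodes darcin, the male pheromone that attracts females, and it was the exception among the 7. It had 31.7, 117, 372 and 16.1 RPKM in DKO tumors, 13.6, 296, 360 and 32.9 RPKM in DKO livers and 69.0, 53.0, 308 and 64.4 RPKM in WT livers. The groups overlapped widely, and each group held high and low libraries.

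**Figure D2:**
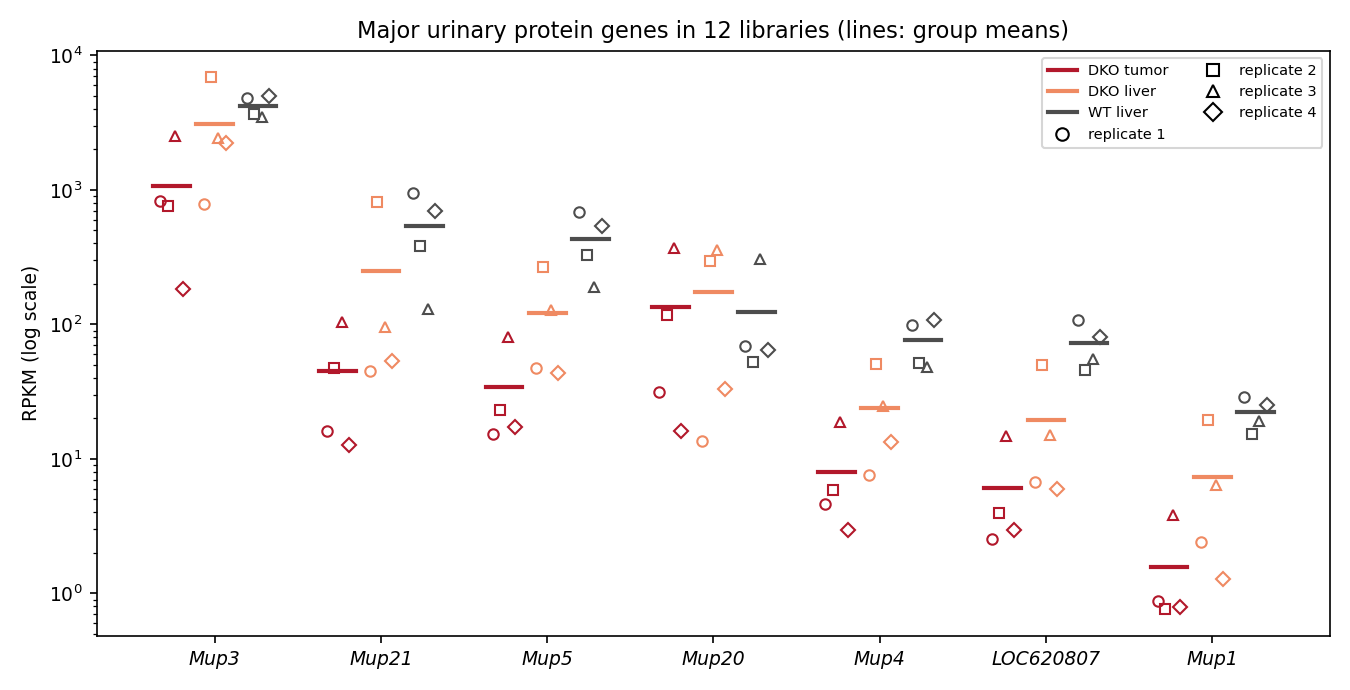
RPKM of each gene in each library on a log axis, with the symbol shape giving the replicate number and lines giving group means (n = 4). Tumors lie below all WT livers for each gene except Mup20, and tumor 3 and DKO liver 2 lie high in their groups for most genes.

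The order of the levels was steady only at its ends. In WT livers Mup3 did not overlap the next gene, Mup21, and Mup1 did not overlap LOC620807 above it, but Mup21, Mup5 and Mup20 overlapped each other, Mup20 overlapped Mup4, and Mup4 overlapped LOC620807. In DKO livers and DKO tumors each gene overlapped its neighbours in the order of means. By its mean Mup20 was the fourth gene in WT livers, at 123 ± 123 RPKM, and the second in DKO tumors, at 134 ± 165 RPKM (SD, n = 4 each). Its part of the summed level was 3.54 to 12.3% in DKO tumors, 1.38 to 11.8% in DKO livers and 0.985 to 7.30% in WT livers, which overlap.

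The first comparison was of DKO tumors with WT livers, the one the members were listed from. The summed level was 4.25-fold lower in DKO tumors, a log2 ratio of -2.09. Mean levels were 14.1-fold lower for Mup1, 12.7-fold for Mup5, 12-fold for Mup21, 11.9-fold for LOC620807, 9.51-fold for Mup4 and 3.98-fold for Mup3, while Mup20 was 1.09-fold higher in the mean of the tumors. On the scale of the fit, log2(RPKM + 1), differences ran from -3.81 ± 0.65 for Mup5 to -2.51 ± 0.72 for Mup3 and -0.41 ± 1.15 for Mup20 (SE, 4 against 4 libraries). For Mup20 the ratio of means and the mean of logs differ in sign. Of the 7 genes, 6 were lower in every tumor than in every WT liver, which held for 6.32% of the 11351 genes tested. Nothing is read from this count, because the contrast was known when the genes were listed.

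The tumors were not alike. Tumor 3 was the highest tumor for all 7 members, with a summed level of 3101 RPKM against 237 to 955 in the other 3, and without it the log2 ratio was -2.99. Tumor 3 also had the highest sums of the tumors for markers of macrophages (350 against 89.9 to 119 RPKM), hepatic stellate cells (286 against 71.1 to 78.5), cholangiocytes (118 against 18.6 to 39.0), endothelium (112 against 42.1 to 70.3) and lymphocytes (17.0 against 3.62 to 5.61). These lists hold 11 macrophage, 11 stellate, 7 cholangiocyte, 10 endothelial and 12 lymphocyte genes found in the data, none of them at 0 in all libraries. For 5 erythroid genes tumor 3 had the lowest sum of the tumors, at 115 against 167 to 448 RPKM. Macrophage sums were 276 to 839 RPKM in DKO livers and 158 to 409 in WT livers, and stellate sums were 125 to 395 in DKO livers and 120 to 165 in WT livers. The part of other cells or of adjacent liver in the Mup level of tumor 3 was not tested. Among the 4 tumors and the 2 WT livers that share tag L03, the log2 ratio of the sum was -2.05.

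DKO livers were compared with WT livers, to follow the genes in the diseased liver outside the tumor. All 7 genes had a negative log2 difference, which held for 39.5% of genes tested, but none passed the threshold by limma with Benjamini-Hochberg adjustment over all genes. No gene of the 11351 passed in this comparison (0%), by limma or by voom, the limma method for counts, on recovered reads. At an unadjusted p under 0.05, 4 members passed by limma, Mup1, Mup4, Mup5 and LOC620807, beside 12.4% of all genes. The comparison shares its WT livers with the one the members were listed from and is not independent of it.

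The differences were -2.26 ± 0.62 for LOC620807 (limma adjusted p = 0.276), -2.07 ± 0.65 for Mup5 (adjusted p = 0.295), -1.95 ± 0.57 for Mup1 (adjusted p = 0.290) and -1.85 ± 0.57 for Mup4 (adjusted p = 0.295). Mup21 differed by -1.85 ± 0.94 (limma adjusted p = 0.442), Mup3 by -0.85 ± 0.72 (adjusted p = 0.635) and Mup20 by -0.13 ± 1.15 (adjusted p = 0.968). The errors are SE on the log2(RPKM + 1) scale, 4 against 4 libraries. Mup3, the dominant member, had the smallest difference after Mup20, and the summed level was 1.5-fold lower in DKO livers, a log2 ratio of -0.58.

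The spread among DKO livers came mainly from 1 library. DKO livers 1 and 4 were below every WT liver for all 7 members and DKO liver 3 for 6, the exception being Mup20. DKO liver 2 was below every WT liver for none. The share of all genes was not computed for single libraries and the members move together, so nothing is read from these counts. Its summed level of 8369 RPKM was the highest of all 12 libraries, and the other 3 DKO livers had 913 to 3058 RPKM. DKO liver 2 also had the lowest sums of its group for markers of macrophages (276 against 411 to 839 RPKM), cholangiocytes (34.5 against 42.6 to 173) and lymphocytes (9.71 against 10.6 to 26.3). For endothelial (99.0 RPKM) and stellate markers (131) it was not the lowest, DKO liver 4 having 94.3 and 125. For erythroid markers (173) DKO liver 3 was lower, at 151. The part of these cells was not tested. Without DKO liver 2 the log2 ratio of the sum was -1.38, and still no member passed, the lowest limma adjusted p being 0.132, for Mup1. Within tag L02, where 4 DKO livers face WT livers 1 and 2, the log2 ratio of the sum was -0.62 and Mup20 turned to 0.47.

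**Figure D3:**
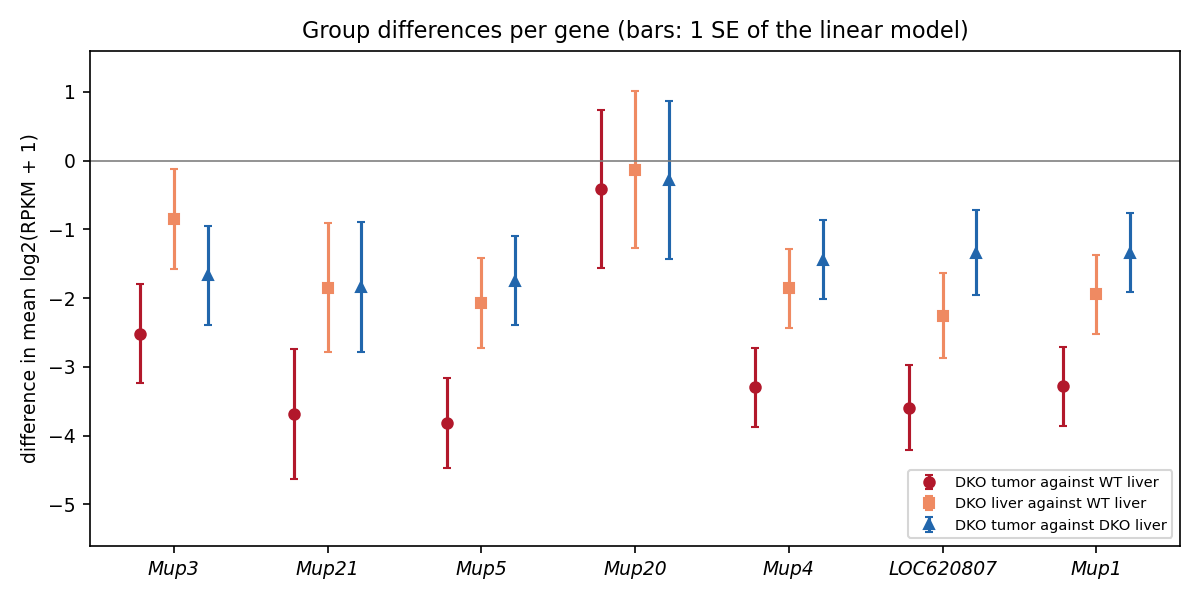
Difference in mean log2(RPKM + 1) of each gene for DKO tumor against WT liver, DKO liver against WT liver and DKO tumor against DKO liver, with bars of 1 SE from the linear model over 12 libraries. For each gene the DKO tumor against WT liver difference is the lowest of the 3, from -3.81 for Mup5 to -0.41 for Mup20.

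DKO tumors were then compared with DKO livers, which share animals with them. The summed level averaged 2.84-fold lower in tumors, a log2 ratio of -1.51, which was -0.71 without DKO liver 2 and -2.40 without DKO tumor 3. Again all 7 differences were negative, as were 62.8% of those of all genes, and no member passed by limma, where 1 gene of 11351 passed (0.00881%), or by voom. At an unadjusted p under 0.05, 4 members passed by limma, Mup1, Mup3, Mup4 and Mup5, beside 16.1% of genes. The largest difference was that of Mup21, at -1.84 ± 0.94 (limma adjusted p = 0.362), and the smallest adjusted p was that of Mup5, at -1.74 ± 0.65 (adjusted p = 0.221). This comparison shares its tumors with the one the members were listed from. All its tumors carry tag L03 and all its livers L02. Tag and tissue can therefore be told apart only through the WT livers, if the tag acts alike in every group.

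Taken animal by animal, as paired by the animal codes, tumor and liver were nearly equal in 2 of 4 animals and far apart in the other 2. For animals 1 and 4 the pairing rests on the codes alone. Over all tested genes, each of these tumors correlated more with the liver of the other animal than with its own. The summed level was 895 RPKM in the tumor against 913 in the liver of animal 1, and 3101 RPKM in the tumor against 3058 in the liver of animal 3. It was 955 RPKM in the tumor against 8369 in the liver of animal 2, an 8.77-fold difference, and 237 RPKM in the tumor against 2385 in the liver of animal 4, a 10.1-fold difference. Animal 1 therefore had a low level in both tissues, and animal 3 an intermediate level in both.

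The single genes did not all follow the sum within an animal. In animals 2 and 4 all 7 members were lower in the tumor, the log2 ratio lying between -4.66 and -1.34 in animal 2 and between -3.60 and -0.70 in animal 4. The share of all genes lower in the tumor was not computed per animal, so nothing is read from this count. In animal 1 Mup3 was equal, with a log2 ratio of 0.06, whereas Mup1, Mup5, Mup21 and LOC620807 were 2.64- to 3.10-fold lower in the tumor and Mup20 was 2.33-fold higher. In animal 3 Mup3, Mup20, Mup21 and LOC620807 were within 0.12 of 0 on the log2 scale, and Mup5 was 1.58-fold lower in the tumor. With the animal as a replicate block no member passed either, the lowest limma adjusted p being 0.127, for Mup5.

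**Figure D4:**
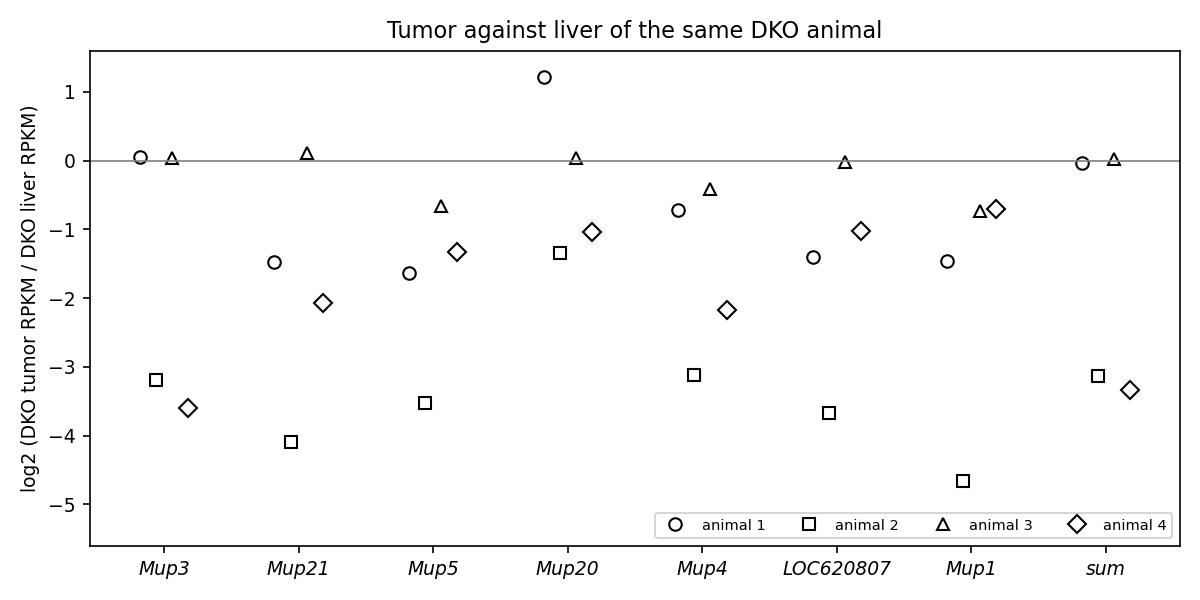
Log2 ratio of DKO tumor over DKO liver RPKM for each gene and the sum in the 4 animals. The sums of animals 1 and 3 lie at -0.03 and 0.02, and those of animals 2 and 4 at -3.13 and -3.33.

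Levels of Mup1, Mup4, Mup5 and LOC620807 ran almost in parallel over the 12 libraries, with Pearson correlations of 0.97 to 0.99 on the log2(RPKM + 1) scale among the 6 pairs. LOC620807, the member with the fewest shared windows, correlated with Mup5 at 0.98. Mup3 correlated with these 4 and with Mup21 at 0.85 to 0.92. Mup20 stood apart, with 0.40 to 0.59 against the other 6, and over the 8 DKO libraries alone with 0.68 to 0.77. The 12 points share 3 groups and are given as a description.

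Other rows of the family lay outside the chosen set. Mup2, another male urinary protein gene, is listed at 3 loci, and its longest row was at 0 in all libraries, so it entered no test. At the locus mm9 chr4:60961070-61100734 it had 19.7, 42.2, 352 and 19.5 RPKM in DKO tumors, 43.8, 842, 98.2 and 92.5 RPKM in DKO livers and 2026, 265, 1771 and 959 RPKM in WT livers. This locus is far longer than that of any member, for an exon length of 886 bases. Whether it holds a single gene copy was not tested. Tumors 1, 2 and 4 were below every WT liver and tumor 3 was above WT liver 2. With Mup2 added the summed level was 4.82-fold lower in DKO tumors than in WT livers. The other locus listed for Mup1 had 0 to 7.55 RPKM.

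The genes outside the family whose level was most like the summed Mup level over 12 libraries were Onecut1, Slc22a7, Cyp2u1, Mcm10, Nlrp6, Necab1, Ugt2a3 and Gas2, with Pearson correlations of 0.90 to 0.94, and no other tested gene outside the family reached 0.9. Onecut1 encodes a liver transcription factor, Slc22a7 an organic anion transporter, Cyp2u1 a cytochrome P450 and Mcm10 a DNA replication factor. Mcm10 had 8.5 ± 4.39 RPKM in DKO tumors, 17.3 ± 8.66 in DKO livers and 32.1 ± 10.7 in WT livers (SD, n = 4 each). Slc22a7 had 9.02 ± 7.12 RPKM in DKO tumors, 30.3 ± 17.2 in DKO livers and 36.3 ± 12.8 in WT livers.

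Other male-biased liver genes, such as cytochromes and steroid enzymes, were followed as a list. All gene lists here were chosen with earlier results of these data known, so nothing is read from how many of their genes passed. Of 25 tested in DKO tumors against WT livers, 18 had a negative difference, as did 52.9% of all genes, and 2 passed as lower, Susd4 and Cyp2u1, as did 0.67% of all genes. Neither passed with the tag as covariate or within L03. The median log2 difference of the 25 was -1.08, beside -0.02 over all genes. Susd4 fell to 2.82 ± 3.07 RPKM in DKO tumors, against 22.5 ± 5.13 RPKM in WT livers (limma adjusted p = 0.0169), and Cyp2u1 fell to 4.29 ± 4.32 in DKO tumors, against 25.5 ± 7.96 RPKM in WT livers (adjusted p = 0.0269). Next were Nudt7, a peroxisomal hydrolase, at 42.0 ± 33.5 in DKO tumors against 171 ± 43.5 RPKM in WT livers (limma adjusted p = 0.064), and the NADPH oxidase Nox4 at 6.05 ± 4.12 in DKO tumors against 18.3 ± 3.41 RPKM in WT livers (adjusted p = 0.0941). None of the 25 passed in DKO livers against WT livers or in DKO tumors against DKO livers by limma or voom, where 5 and 2 had an unadjusted limma p under 0.05, beside 12.4% and 16.1% of all genes.

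The female-biased list was likewise chosen with earlier results known, and its counts are a description. Of 23 female-biased liver genes tested, 4 rose in DKO tumors against WT livers, as did 1.23% of all genes. The number was 1 with the tag as covariate and 2 within L03. A positive difference was seen in 14 of the 23 and a negative one in 9, the lowest being that of Hamp2, a hepcidin gene named here after its values were seen, at -2.09 ± 0.56 (limma adjusted p = 0.0769). Cyp2a4, a steroid hydroxylase with a near-identical copy in Cyp2a5, rose to 209 ± 70.0 RPKM in DKO tumors, against 12 ± 3.1 RPKM in WT livers (SD, n = 4 each; limma adjusted p = 0.0181). Lpl, which encodes lipoprotein lipase, rose to 76.0 ± 25.8 RPKM in DKO tumors, against 8.47 ± 3.07 RPKM in WT livers (limma adjusted p = 0.000986). The stem cell surface protein gene Prom1 and the bile acid synthesis gene Cyp39a1 also rose, and the median of the list was 1.08. None of the 23 passed in DKO livers against WT livers or in DKO tumors against DKO livers by limma or voom, where 4 and 6 had an unadjusted limma p under 0.05, beside the same shares. Both lists move with the libraries they are counted in: the female-biased count was 1 without DKO tumor 1, DKO tumor 2 or WT liver 4 and 2 without WT liver 1, and the male-biased count ran from 0 (without DKO tumor 2, WT liver 1 or WT liver 4) to 6 (without DKO liver 2).

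The hormone pathway and regulators of Mup genes were given as a list of 23, and none passed in any of the 3 comparisons by limma or voom. At an unadjusted limma p under 0.05 the numbers were 10 for DKO tumors against WT livers, 2 for DKO livers against WT livers and 5 for DKO tumors against DKO livers, beside 19.2%, 12.4% and 16.1% of all genes. The growth hormone receptor gene Ghr had 134 ± 40.8 RPKM in DKO tumors, 146 ± 47.4 in DKO livers and 217 ± 38.8 in WT livers (limma adjusted p = 0.164 for DKO tumors against WT livers). Stat5b, the transducer of the hormone, had 9 ± 0.70 RPKM in DKO tumors, 10.8 ± 3.51 in DKO livers and 8.70 ± 0.87 in WT livers. Zhx2, known in mice as a repressor of fetal Afp and a regulator of Mup genes, had 9.39 ± 0.70 RPKM in DKO tumors, 6.52 ± 0.63 in DKO livers and 7.18 ± 1.20 in WT livers.

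Known targets of growth hormone come next, none of which passed by limma. Socs2, a feedback inhibitor, had 11.7 ± 5.47 RPKM in DKO tumors, 19.2 ± 9.51 in DKO livers and 12 ± 4.46 in WT livers (limma adjusted p = 0.923 for DKO tumors against WT livers). Cish, another inhibitor of the pathway, had 4.03 ± 1.51 RPKM in DKO tumors, 8.40 ± 4.13 in DKO livers and 14.4 ± 7.09 in WT livers (limma adjusted p = 0.0789 for DKO tumors against WT livers). Igfals, which encodes the subunit that holds IGF1 in blood, had 25.5 ± 15.1 RPKM in DKO tumors, 64.9 ± 17.5 in DKO livers and 52.3 ± 9.11 in WT livers (limma adjusted p = 0.0699 for DKO tumors against WT livers). Among hepatocyte transcription factors, Cebpa had 59.7 ± 12.8 RPKM in DKO tumors, 100 ± 22.7 in DKO livers and 113 ± 24.8 in WT livers (limma adjusted p = 0.064 for DKO tumors against WT livers). Hnf4a had 168 ± 31.8 RPKM in DKO tumors, 175 ± 23.5 in DKO livers and 152 ± 19.5 in WT livers.

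Other lipocalins, proteins of the same fold, and hepatocyte genes in general are given for comparison, without a test of their difference from the members. Of 10 lipocalin genes tested none passed by limma in any comparison, with 3, 0 and 2 at an unadjusted p under 0.05 in DKO tumors against WT livers, DKO livers against WT livers and DKO tumors against DKO livers, beside 19.2%, 12.4% and 16.1% of all genes. The median log2 difference of DKO tumors against WT livers was -0.35. C8g, a complement subunit, had 119 ± 16.6 RPKM in DKO tumors against 242 ± 62.4 RPKM in WT livers (limma adjusted p = 0.0502) and was the 1 lipocalin that passed by voom in that comparison. Of 24 hepatocyte genes none passed by limma or voom, with 3, 1 and 3 at an unadjusted limma p under 0.05 in these comparisons, beside the same shares of all genes. Their median in DKO tumors against WT livers was -0.14, and Ahsg, which encodes fetuin-A, had 7854 ± 1351 RPKM in DKO tumors against 4178 ± 578 RPKM in WT livers (limma adjusted p = 0.0692).

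Genes beside the cluster were also followed. The members span mm9 chr4:59969677-61811896, and the 5 nearest symbols on each side were taken by position. Of these 10, 8 were tested and none passed by limma or voom in any of the 3 comparisons, with 2 at an unadjusted limma p under 0.05 in DKO tumors against WT livers (19.2% of all genes) and log2 differences of DKO tumors against WT livers from -0.45 to 0.23. Hsdl2, before the cluster, had 24.6 ± 7.47 RPKM in DKO tumors against 32.3 ± 2.81 RPKM in WT livers, and Slc31a1, the copper transporter gene after it, had 55.7 ± 13.6 in DKO tumors against 72.3 ± 4.22 RPKM in WT livers (SD, n = 4 each).

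**Figure D5:**
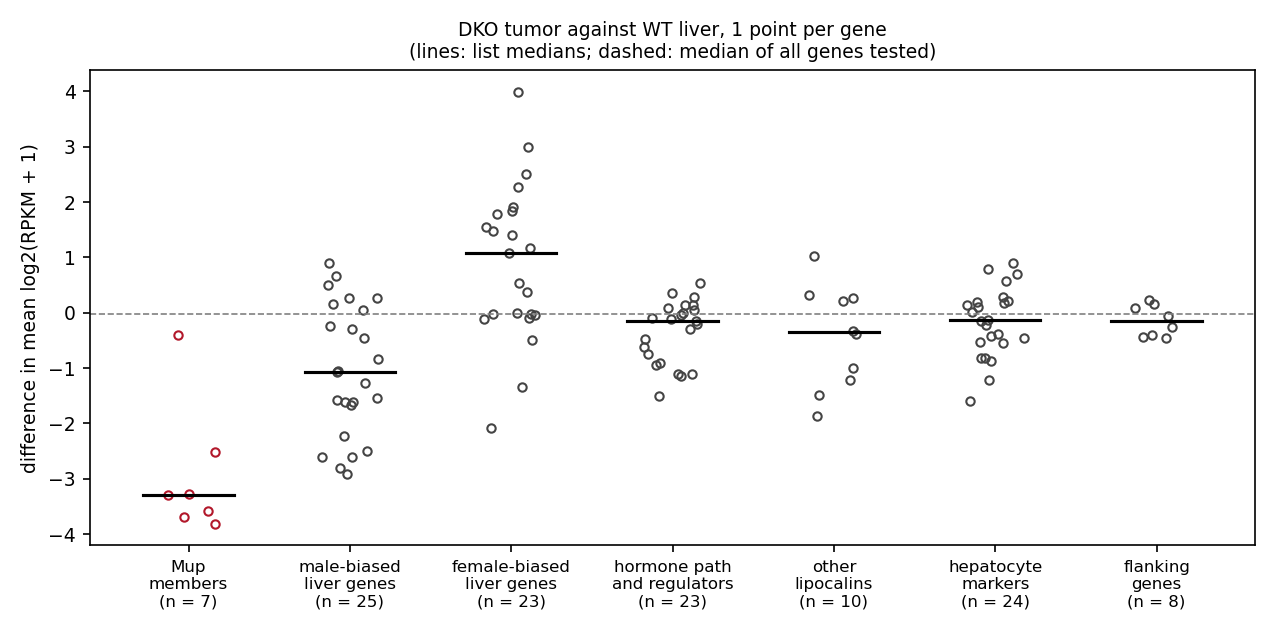
Difference in mean log2(RPKM + 1) of DKO tumors against WT livers for the 7 Mup genes, the tested genes of 5 lists and the flanking genes. The Mup genes were listed with this contrast known, and the lists were chosen with earlier results of these data known. List medians are -3.30 for the Mup genes, -1.08 for male-biased and 1.08 for female-biased genes, and the dashed line marks -0.02, the median of all genes tested.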

How the data were processed

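RPKM per transcript were computed by the authors; per the submitters' processing notes, BWA and the mouse build mm9 were used, with no version, and the counting tool is not stated. Whether deposited coordinates count from 0 or 1 is not stated. Multiplying RPKM by exon length gave whole reads, within 0.05 of a read, for 100% of values, and from these the depth. Intervals were not computed, and depth describes counting error only.

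limma 3.58.1 (R 4.3.3) was fitted to log2(RPKM + 1) over 12 libraries with a mean per group, intensity trend and robust shrinkage, for the 11351 genes that reached 0.5 RPKM in 4 or more libraries. The test was two-sided, Benjamini-Hochberg adjusted over all genes at 0.05. An offset of 1 understates changes of low genes. P-values measure the spread between samples, whose animal codes differ within each group, though labels do not state them to be separate animals. Same-numbered DKO tumor and DKO liver share an animal by the codes, and their deviations correlated at 0.12, 0.35, 0.37 and 0.003 for animals 1 to 4. Tumor 1 correlated more with liver 4 (0.15) and tumor 4 more with liver 1 (0.09). Tumors 2 and 3 correlated most with the liver of their own number.

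The members and gene lists were chosen with earlier results of these data known. Named genes are the members, other Mup symbols, E2f7, E2f8, the 8 genes most like the sum, flanking genes, up to 4 genes per list by p in DKO tumors against WT livers, any regulator and all sex-linked genes; the text names some. Alternatives covered scaling, offset, filter, voom, tag, animal block, transcript choice and each library left out; sums with Mup2 or without Mup3 were chosen after seeing the data. Sequences were aligned with MAFFT 7.526. Python 3.11.15, numpy 2.4.6, pandas 2.3.3, scipy 1.17.1 and matplotlib 3.10.9 were used. Raw reads were not analysed here.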

Additional observations from a re-analysis of the deposited data

Results flagged for a closer look

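In 27 groups of 4 libraries (7 members, their sum and Mup2 in 3 groups), 7 values lay far from the other 3 of their group by Dixon's test at the 95% level. Chance flags about 1 in 20 groups. DKO tumor 3 stood high for Mup1 at 3.85 RPKM (others 0.765 to 0.880), Mup5 at 81.0 (15.4 to 23.1), LOC620807 at 14.8 (2.55 to 3.94) and Mup2 at 352 RPKM (19.5 to 42.2). DKO liver 2 stood high for Mup21 at 808 RPKM (others 45 to 95.7) and Mup2 at 842 (43.8 to 98.2). WT liver 3 stood high for Mup20 at 308 RPKM, where the others had 53.0 to 69.0. DKO tumor 3 and DKO liver 2 hold 6 of the 7, so these values are not independent.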

How the results depend on the processing

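The log2 ratios of the summed level stayed negative and within 1 SD of the reported value under the other scalings, transcript choices and tags. The same held without each library. It also held for the mean of the log2 ratios per animal, -1.62 for DKO tumors against DKO livers. That mean is another quantity than the reported ratio of group means, and no block was fitted to the sum. This SD is that of the log2 sums within the 2 groups compared, pooled, and is a loose margin. For DKO livers against WT livers, -1.38 and -0.26 both met it around the reported -0.58. Leaving out 1 library gave -2.99 to -1.74 for DKO tumors against WT livers, -1.38 to -0.26 for DKO livers against WT livers and -2.40 to -0.71 for DKO tumors against DKO livers. No member passed in the last 2 comparisons under any alternative, the replicate block included, the lowest limma adjusted p over 350 values being 0.0651. Mup20 was the 1 member whose sign reversed: to 0.47 for DKO livers against WT livers with the tag as covariate and also within L02. With 1 library left out it ran from -1.21 to 0.27 for DKO tumors against WT livers, -0.82 to 0.72 for DKO livers against WT livers and -1.13 to 0.42 for DKO tumors against DKO livers; the values above 0 there were 0.27 and 0.17, then 0.72, 0.32 and 0.45, then 0.09, 0.40, 0.32 and 0.42. The causes were not tested.

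In DKO tumors against WT livers, male-biased genes passing numbered 5 over 8 libraries alone, 0 with the tag and within L03, and 0 to 6 with 1 library left out. Female-biased genes numbered 1 with the tag, 2 within L03 and 1 to 5 with 1 left out. Regulators numbered 1 (Cebpa) under median-of-ratios scaling and quantile normalization, and 0 to 1 with 1 left out. C8g made the lipocalins 1 with offset 0.1, rescaling, voom, 8 libraries alone, no robust shrinkage, the shortest transcript and summed rows, and 0 to 1 with 1 left out. Hepatocyte genes numbered 1 (Ahsg) under quantile normalization. All genes passing numbered 216, against 112 without a filter, 606 and 478 under median-of-ratios and quantile scaling, 3 with the tag, 25 within L03, and 16 to 413 with 1 library left out.

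In DKO livers against WT livers, all genes passing numbered 0, against 1 under median-of-ratios scaling, 1 over 8 libraries alone and 0 to 2 with 1 left out; female-biased genes numbered 0 to 1. In DKO tumors against DKO livers, all genes passing numbered 1, against 0 at 2 RPKM or with the tag, 24 under quantile normalization, 55 over 8 libraries alone, 71 with the replicate block and 1 to 363 with 1 left out, where male-biased genes numbered 0 to 2, female-biased 0 to 3 and regulators 0 to 1. The pairing check is given with the methods, and the block changed no call of a member or list. Median-of-ratios and quantile scaling shifted the median of all genes by 0.11 in this comparison. Depth limits Mup1 and LOC620807 most, with 9 and 22 reads in their lowest libraries.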
